A study of Homo sapiens with 12 samples.

Results

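The comparison described here asked what a low dose of triptolide added to decitabine in DU145, a cell line grown from a brain metastasis of a prostate carcinoma. Members were chosen by the drug labels alone: the 3 libraries given both drugs (DACTPL) were set against the 3 given decitabine only (DAC), so 6 of the 12 libraries entered it, and all genes were examined. The 4 groups of 3 libraries were cells given the vehicle DMSO (Ctrl), 2 nM triptolide (TPL), 33 nM decitabine (DAC) or both drugs (DACTPL). In every group the dose was given once a day on 3 days, the cells then grew for 17 days without drug, and total RNA was taken on day 20. The labels disagree on decitabine in DACTPL, which is 33 nM in the characteristics but 3 nM in the protocol text, so a difference in the decitabine dose and the added triptolide cannot be told apart. The labels do not say that the replicates were separate cultures, so p-values measure only the spread between these libraries. In RNA from a whole culture, fewer cells with a transcript and less of it per cell cannot be told apart.

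Decitabine is a deoxycytidine analogue that enters DNA after phosphorylation by DCK and traps DNA methyltransferases there, so that cytosine methylation is lost as cells divide and silenced genes can be switched on. Triptolide is a diterpene triepoxide from a vine that binds ERCC3, the XPB helicase of the general transcription factor TFIIH, and slows the start of transcription by RNA polymerase II. DCTPP1 is a pyrophosphatase that hydrolyses dCTP and its analogues, decitabine triphosphate among them, and it is the link through which the study paired both drugs.

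A total of 5 genes differed between DACTPL and DAC by the edgeR test described further on. Promoters of all 5 were looked up, and 3 of the 5 genes had an entry: IFI27, CPS1 and MAPK4, the 3 that rose. The printed stretches are the 250 bases before the annotated start, for the first start listed for each gene. They come from RefSeq on GRCh38.p14, plus strand, 5′ to 3′. IFI27 had 2 starts listed, CPS1 3 and MAPK4 1, and the printed CPS1 start is the most downstream of its 3. Which start these cells use was not determined. In the IFI27 promoter (chr14:94110486-94110735) capitals mark matches to the interferon-stimulated response element, searched as GAAA, any 2 bases and GAAA again on both strands, so that TTTC marks the reverse form. In the CPS1 promoter (chr2:210593105-210593354) and the MAPK4 promoter (chr18:50559837-50560086) capitals mark CpG pairs, the sites that DNA methyltransferases methylate.
IFI27: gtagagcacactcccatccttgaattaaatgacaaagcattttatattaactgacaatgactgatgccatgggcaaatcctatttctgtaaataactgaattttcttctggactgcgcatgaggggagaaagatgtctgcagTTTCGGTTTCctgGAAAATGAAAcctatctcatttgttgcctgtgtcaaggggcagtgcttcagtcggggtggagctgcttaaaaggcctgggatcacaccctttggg
CPS1: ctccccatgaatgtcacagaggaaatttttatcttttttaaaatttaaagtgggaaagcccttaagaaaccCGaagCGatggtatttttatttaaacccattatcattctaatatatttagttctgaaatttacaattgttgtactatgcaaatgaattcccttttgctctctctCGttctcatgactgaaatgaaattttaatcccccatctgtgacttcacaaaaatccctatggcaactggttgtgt
MAPK4: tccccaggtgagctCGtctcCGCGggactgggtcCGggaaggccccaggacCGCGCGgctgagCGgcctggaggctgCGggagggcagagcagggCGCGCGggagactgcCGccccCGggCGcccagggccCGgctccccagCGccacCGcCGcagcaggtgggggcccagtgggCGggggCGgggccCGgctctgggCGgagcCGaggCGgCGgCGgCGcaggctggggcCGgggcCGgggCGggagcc
The IFI27 stretch held 2 matches that do not overlap, 1 on each strand, where 3.02% of all 35116 promoters in the table held any match and 0.225% held at least 2. It held 3 CpG pairs and the CPS1 stretch also 3, against a median of 11 over all promoters, and 29.3% of promoters held 3 or fewer. The stretches before the other listed starts held 4 CpG pairs for IFI27 and 1 and 3 for CPS1. With 31 CpG pairs the MAPK4 stretch was among the 10.9% of promoters with that many or more. Methylation was not measured in these files, and a match is a description of the letters alone.

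Libraries of the comparison held 37.5, 32.8 and 43.7 M expected counts in DAC and 42.5, 32.4 and 31.5 M in DACTPL, within the 26.4 to 47 M of all 12. The epithelial genes EPCAM, CDH1, KRT8, KRT18 and KRT19 summed to 2495 to 2763 CPM (counts scaled to a common library size) in DAC and 2386 to 2517 in DACTPL. FOLH1, a marker of luminal prostate cells, had no counts in any of the 6 libraries, and the haemoglobin gene HBB had none either. Of 9 fibroblast markers, COL1A1 was the sole one with a mean of at least 1 CPM, and the summed level of the list was 8.59 to 12.6 CPM in DAC and 13.1 to 15.1 in DACTPL. Sums of the blood, luminal prostate and endothelial lists overlapped between the groups, and that of the basal list was 4.07 to 4.77 CPM in DAC and 4.90 to 5.30 in DACTPL.

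Libraries within a group were not equally alike, and the labels give no batch. Across 12766 coding genes, the level in a library relative to the mean of all 12 followed gene length with a Spearman rho of -0.24 and -0.36 in DAC 1 and DAC 2 but 0.11 in DAC 3. It was -0.23 in DACTPL 1 but 0.35 and 0.27 in DACTPL 2 and DACTPL 3. Of all 15890 genes tested, DAC 3 was the DAC library nearest to the DACTPL mean for 59.1%, and DACTPL 1 was the DACTPL library nearest to the DAC mean for 51.0%. The log2 fold change between the groups followed length with a rho of 0.29 over 13831 coding genes, and 0.02 once the trend of each library was removed. The value with the trend removed is given beside each list median that it moved by over 1.5 times and beside some others, and its part in other results was not tested.

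**Figure D1:**
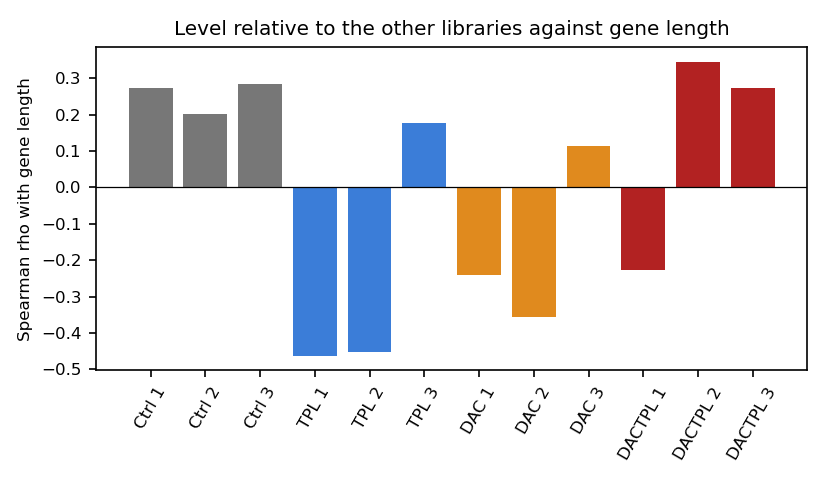
Spearman rho between gene length and the level in each library relative to the mean of the 12 libraries, over 12766 coding genes, with 1 bar per library coloured by group. DAC 1, DAC 2 and DACTPL 1 lie below 0 at -0.24, -0.36 and -0.23, and DAC 3, DACTPL 2 and DACTPL 3 lie above it at 0.11, 0.35 and 0.27.

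With edgeR's quasi-likelihood test, 5 of 15890 genes (0.0315%) differed between DACTPL and DAC at an adjusted p below 0.05, 3 higher (0.0189%) and 2 lower (0.0126%). MAPK4, CPS1 and IFI27 rose and TAGLN and DUSP5 fell, each with an adjusted p of 0.0279 by edgeR, and no change reached 2-fold. At an unadjusted p below 0.05 there were 2419 genes (15.2%), 1213 higher (7.63%) and 1206 lower (7.59%). The median log2 fold change over all genes was 0.01, with quartiles of -0.10 and 0.15.

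MAPK4 encodes ERK4, an atypical MAP kinase that binds the kinase MK5. Its level was 2.40, 2.34 and 2.91 CPM in DAC and 5.32, 4.98 and 4.99 in DACTPL. It was 1.09, 0.904 and 1.27 CPM in Ctrl and 2.01, 1.5 and 2.00 in TPL. The TPL libraries lay above all Ctrl libraries, and the DACTPL libraries above all DAC libraries. The log2 fold change of DACTPL over DAC was 0.99 (SE 0.14), or 1.99-fold, and that of TPL over Ctrl was 0.73 (SE 0.17, adjusted p = 0.0467 by edgeR). The difference between these log2 fold changes, the interaction, was 0.27 (SE 0.22, adjusted p = 0.581 by edgeR).

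CPS1 encodes the mitochondrial carbamoyl phosphate synthetase, the entry enzyme of the urea cycle, which is abundant in liver. CPS1 stood at 3.53, 3.69 and 4.68 CPM in DAC and at 8.10, 7.19 and 8.45 in DACTPL. Without decitabine it was low, at 0.253, 0.402 and 0.209 CPM in Ctrl and 0.232, 0.199 and 0.296 in TPL. The DACTPL libraries lay above all DAC libraries, while Ctrl and TPL overlapped. The log2 fold change of DACTPL over DAC was 0.99 (SE 0.14), also 1.99-fold, against -0.17 (adjusted p = 0.858 by edgeR) for TPL over Ctrl. The interaction was 1.17 (SE 0.37, adjusted p = 0.214 by edgeR) and was not called.

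IFI27 encodes a small mitochondrial membrane protein that type I interferon induces strongly. It read 9.62, 9.49 and 10.5 CPM in DAC and 19.8, 16.6 and 14.4 in DACTPL. The DACTPL libraries were spread over a wider range than the DAC libraries and did not overlap them. Ctrl had 0.607, 0.502 and 0.502 CPM and TPL 0.426, 0.598 and 0.559. DACTPL over DAC gave a log2 fold change of 0.78 (SE 0.11), or 1.72-fold, and TPL over Ctrl gave -0.01 (adjusted p = 0.992 by edgeR). The interaction of 0.79 (SE 0.28) had an adjusted p of 0.223 by edgeR. IFI27 and CPS1 both rose in DAC over Ctrl, by 4.19 and 3.84 on the log2 scale (adjusted p = 3.97e-09 and 1.23e-07 by edgeR), a comparison that shares the DAC libraries and in which 6.27% of genes were called higher.

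TAGLN encodes transgelin, an actin-binding protein of smooth muscle whose gene is a classic target of serum response factor. TAGLN had 10.5, 9.91 and 9.27 CPM in DAC and 6.09, 6.07 and 6.75 in DACTPL. Ctrl held 6.29, 7.03 and 7.36 CPM and TPL held 7.12, 6.38 and 6.18. The DAC libraries were the highest 3 of the 12, and the DACTPL libraries overlapped both groups without decitabine. TAGLN fell by 0.65 on the log2 scale (SE 0.09) from DAC to DACTPL, a level 1.57-fold lower, where TPL over Ctrl gave -0.07 (adjusted p = 0.709 by edgeR). Its interaction was -0.57 (SE 0.13, adjusted p = 0.156 by edgeR).

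DUSP5 encodes a nuclear phosphatase that inactivates ERK and is itself induced by ERK signalling. In DAC it read 81.4, 84.4 and 81.4 CPM, and in DACTPL 59.6, 59.7 and 62.4. Ctrl had 95.4, 91.8 and 81.8 CPM and TPL 70.3, 69.8 and 65.1. All 6 libraries with triptolide lay below all 6 without it. DUSP5 fell by 0.44 on the log2 scale (SE 0.06) from DAC to DACTPL and by 0.39 from Ctrl to TPL (adjusted p = 0.00952 by edgeR), an interaction of -0.05 (SE 0.09, adjusted p = 0.798 by edgeR).

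The direction of all 5 genes was the same in 26 edgeR and limma fits, but the calls were not kept in all of them. DAC 3 was the DAC library nearest to the DACTPL mean for 5 of the 5 genes, and without DAC 3 all 5 were still called, among 11 genes, and without TPL 3 among 8. Without Ctrl 1, Ctrl 2, TPL 1, DAC 1, DACTPL 1 or DACTPL 2, edgeR called 0 genes where DESeq2 called 20 to 482, and the adjusted p of the 5 genes lay between 0.0529 and 0.307 by edgeR. Without DAC 2 edgeR called 1 gene, which was none of the 5, without DACTPL 3 it called IFI27 alone, and without Ctrl 3 it lost IFI27.

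**Figure D2:**
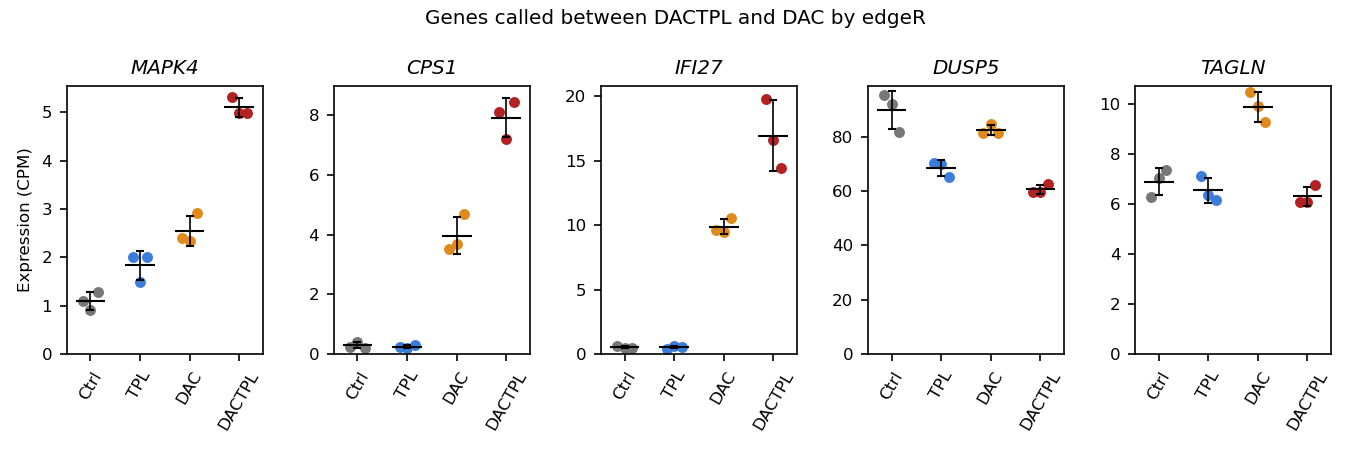
Expression in CPM (linear axes from 0) of the 5 genes called by edgeR, with 1 point per library, the mean as a line and the SD as a bar for each group of 3. MAPK4 is higher in TPL than in Ctrl and in DACTPL than in DAC, with TPL below DAC, DUSP5 is lowest in the groups with triptolide, CPS1 and IFI27 are near 0 without decitabine, and TAGLN is highest in DAC at 9.27 to 10.5 CPM.

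DESeq2, the tool of the submitters' notes, called more genes on the same counts: 84 of 15890 (0.529%), 44 higher (0.277%) and 40 lower (0.252%), the 5 edgeR calls included. In all 84 the 3 DACTPL libraries lay on one side of the 3 DAC libraries. The 84 were chosen on these same libraries, so such a separation is no further evidence, here or where it is named below. Over all genes, 1513 (9.52%) showed it upward and 1643 (10.3%) downward. The changes were small: the median log2 fold change was 0.44 among the 44 and -0.32 among the 40, and 13 and 4 of them reached 1.5-fold. None but the 5 passed edgeR, where their adjusted p ran up to 0.272. For 68 of the 84, or 81%, DAC 3 was the DAC library nearest to DACTPL. Without DAC 3 DESeq2 called 640 genes, 81 of the 84 among them, without DAC 1 it called 21 and without DAC 2 it called 10. It called 482, 20 and 13 genes without DACTPL 1, DACTPL 2 and DACTPL 3, 462 without TPL 3 and 46 without Ctrl 2. Genes named from here on for a DESeq2 call were chosen after their values were seen, and the verbs rose and fell are kept for the 5 edgeR calls.

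**Figure D3:**
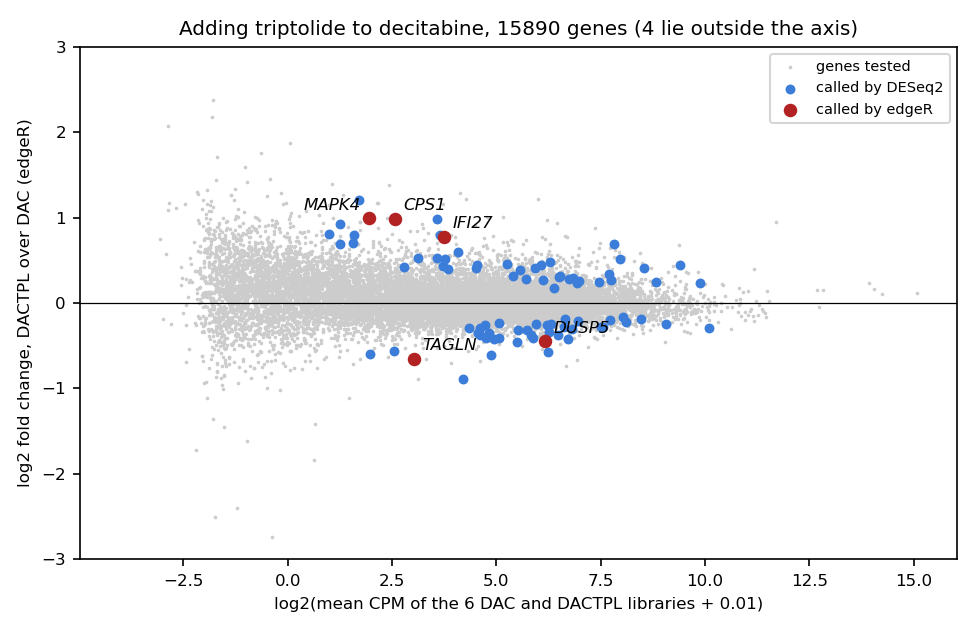
The log2 fold change of DACTPL over DAC (edgeR) against the log2 mean CPM of the 6 libraries plus 0.01, for 15890 genes, of which 4 lie outside the axis. The 84 genes called by DESeq2 and the 5 called by edgeR are coloured, and nearly all lie within a log2 fold change of 1 of zero.

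SLC6A14, an amino acid transporter, had 1.48, 1.62 and 2.70 CPM in DAC and 4.15, 4.83 and 4.64 in DACTPL, so that the groups did not overlap and DAC 3 was the nearest. Its log2 fold change of 1.21 (SE 0.29) was the one above 1 among the 84 (adjusted p = 0.0312 by DESeq2 and 0.225 by edgeR). S100A9, a calcium-binding protein of the calprotectin dimer, had 6.38, 6.99 and 10.5 CPM in DAC and 16.4, 15.4 and 15.5 in DACTPL. That put DACTPL at the level of Ctrl, whose mean was 15.8 CPM (SD 3.21, n = 3), with TPL higher still at 27.7 (SD 3.10, n = 3). SLC7A2, a cationic amino acid transporter, had 13.8, 12.7 and 13.8 CPM in DAC and 21, 20 and 19.9 in DACTPL, with 0.60 as its log2 fold change (SE 0.10, adjusted p = 5.81e-05 by DESeq2 and 0.0932 by edgeR). DUOX2, which makes hydrogen peroxide at epithelial surfaces, had a log2 fold change of 0.80, and ALDH3A1, an aldehyde dehydrogenase, one of 0.53 (adjusted p = 0.0103 and 0.00625 by DESeq2).

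Of 24 imprinted genes tested, 2 were higher by DESeq2, and of 32 germline and meiosis genes 1 was, where 0.277% of all genes were. Of the imprinted genes 15 lay above 0 and 9 below, with a median of 0.04 where that of all genes was 0.01. This median was 0.015 with the length trend removed, 0.0048 without DACTPL 2 and 0.073 without DAC 3. DNA methylation is known to hold many genes of both kinds silent, and it was not measured here. H19, an imprinted long noncoding RNA, had 19, 18.9 and 21.3 CPM in DAC and 27.2, 26.5 and 26.7 in DACTPL, and a mean of 0.891 CPM (SD 0.0770, n = 3) in Ctrl. DIRAS3, an imprinted RAS-like GTPase, had 1.82, 1.38 and 1.70 CPM in DAC and 3.41, 3.11 and 2.78 in DACTPL. Its mean in Ctrl was 0.748 CPM (SD 0.0735, n = 3). REC8, a cohesin subunit of meiosis, had 1.58, 1.41 and 1.32 CPM in DAC and 2.10, 2.68 and 2.82 in DACTPL. In none of the 3 did DAC and DACTPL overlap. REC8 was not silent in Ctrl, with a mean of 1.36 CPM (SD 0.0455, n = 3). It was not called in DAC over Ctrl (log2 fold change 0.08, adjusted p = 0.803 by edgeR). The log2 fold changes of H19, DIRAS3 and REC8 were 0.44, 0.92 and 0.81 (adjusted p = 0.0025, 0.0181 and 0.0312 by DESeq2).

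CNTN1, a neural adhesion protein, had 81.6, 79.2 and 83.3 CPM in DAC and 102, 95.8 and 103 in DACTPL (log2 fold change 0.30, adjusted p = 0.000231 by DESeq2). CD46, a complement regulator, had 317, 297 and 340.2 CPM in DAC and 392, 421 and 451 in DACTPL (0.41, adjusted p = 0.00118 by DESeq2). IFNGR1, the ligand-binding chain of the interferon gamma receptor, had 47.5, 46.8 and 48.0 CPM in DAC and 60.7, 54.1 and 58.1 in DACTPL (0.28, adjusted p = 0.0145 by DESeq2). In each of these the groups were apart. SEMA3A, a secreted guidance cue, MST1R, a receptor tyrosine kinase, and SPINT1, an inhibitor of the proteases that activate its ligand, had log2 fold changes of 0.41, 0.31 and 0.26. Another ERK phosphatase, DUSP4, was higher, at 98.3, 100.2 and 107 CPM in DAC and 127, 123 and 125 in DACTPL, the direction opposite to DUSP5.

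Among the 40 genes lower by DESeq2, those of the contractile list counted further on are described first. ANKRD1, a transcript that YAP induces, had 27.2, 26.7 and 17.9 CPM in DAC and 14.7, 11.7 and 12 in DACTPL, against 14, 14 and 12.4 in Ctrl. As with TAGLN, the DAC libraries lay above all libraries of the other groups, with DAC 3 the nearest to them. Its log2 fold change of -0.90 (SE 0.25) was the lowest of the 40 (adjusted p = 0.0349 by DESeq2 and 0.272 by edgeR). TPM1, a tropomyosin, had 128, 128 and 104 CPM in DAC and 93.1, 86.6 and 88.3 in DACTPL. MYL9, a myosin light chain, had 77.4, 82.1 and 82.4 CPM in DAC and 69.3, 68.3 and 65.5 in DACTPL. The log2 fold changes of TPM1 and MYL9 were -0.42 and -0.25, and that of TNNC1, the slow and cardiac troponin C, which is not on that list, was -0.56.

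DDIT3, which encodes the transcription factor CHOP of the integrated stress response, had 37.6, 39.2 and 30 CPM in DAC and 24.6, 24.3 and 21.0 in DACTPL. PPP1R15A, or GADD34, which recruits the phosphatase that ends that response, had 67.8, 69.6 and 62.4 CPM in DAC and 54.0, 48.3 and 48.1 in DACTPL. GADD45B, a stress sensor that also acts in the p53 response, had 37.7, 41.6 and 36.0 CPM in DAC and 29.2, 27.6 and 29.8 in DACTPL. All 3 were lower in each DACTPL library than in any DAC library, with log2 fold changes of -0.61, -0.41 and -0.41 (adjusted p = 0.0181, 0.00977 and 0.00164 by DESeq2). The immediate early phosphatase DUSP1, the chemokine CXCL2 and the autophagy receptor SQSTM1 had log2 fold changes of -0.37, -0.37 and -0.25. MT1E was lower as well, at -0.38, but belongs to a family of near-identical metallothioneins among which reads may be shared, and RPS16, GLUD1P3 and HNRNPA1P10 are uncertain for the like reason.

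The same drug was also added without decitabine, in libraries that the comparison does not share, and the 2 settings can be set side by side. Between TPL and Ctrl edgeR called 392 genes (2.47%), 267 higher (1.68%) and 125 lower (0.787%), and DESeq2 called 566 higher (3.56%) and 301 lower (1.89%). Of the 44 genes higher in DACTPL, 34 (77.3%) had a log2 fold change above 0 in TPL over Ctrl, where 49.7% of all genes did, and 12 were called higher there by DESeq2 and 0 lower. Of the 40 lower genes, 32 (80.0%) were below 0 in TPL over Ctrl, and 4 were called lower there by DESeq2 and 0 higher. Their median log2 fold change in TPL over Ctrl was 0.12 for the 44 and -0.08 for the 40, where the genes had been chosen on the other comparison. S100A9 (0.81), SNORA73A (0.76), IFNGR1 (0.41), TSC22D1 (0.36), MAL2 (0.35), LPAR1 (0.26) and NAMPT (0.24) were among those that also rose in TPL over Ctrl by edgeR. DUSP5 fell there, with a log2 fold change of -0.39.

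Genes called in TPL over Ctrl were also looked up in the combination. Of the 267 higher there by edgeR, 182 (68.2%) had a log2 fold change above 0 in DACTPL over DAC, against 53.1% of all genes, with a median of 0.06. Of the 125 lower, 67 (53.6%) were below 0, against 46.9%, with a median of -0.01. The trend with gene length ran the other way in TPL over Ctrl, with a rho of -0.38 over the coding genes. The 392 calls fell to between 25 and 56 without Ctrl 1, Ctrl 2, TPL 1 or TPL 2 and to between 199 and 245 without DAC 1, DAC 2 or DACTPL 3, and were 618 without Ctrl 3 and 930 without TPL 3.

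**Figure D4:**
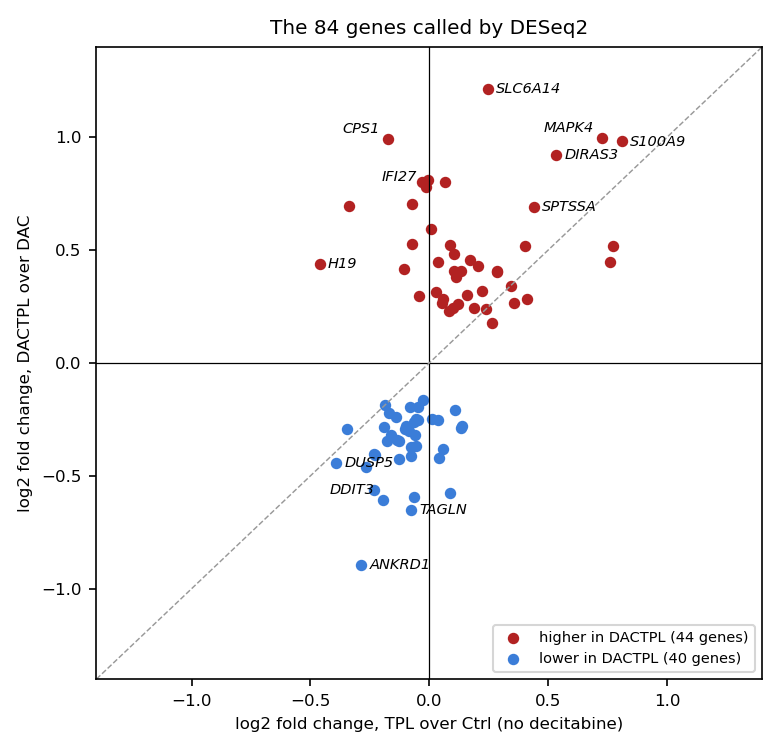
Log2 fold changes of TPL over Ctrl (horizontal) and DACTPL over DAC (vertical) for the 84 genes called by DESeq2 in the latter, with the dashed line marking equal values. Of the 44 higher genes 34 lie right of 0, and of the 40 lower genes 32 lie left of it, while CPS1 and IFI27 lie at or left of 0.

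Whether triptolide acted differently with and without decitabine was tested as the interaction, and edgeR called 1 of 15890 genes (0.00629%), where DESeq2 called 118 (0.743%) and 2545 (16.0%) had an unadjusted p below 0.05 by edgeR. That gene was EYA4-AS1, a noncoding RNA antisense to EYA4. It had 27.0, 26.9 and 23.0 CPM in Ctrl and 15.6, 17.5 and 17.0 in TPL, but 15.5, 15.5 and 15.6 in DAC and 18.9, 17.4 and 18.4 in DACTPL. It fell from Ctrl to TPL with a log2 fold change of -0.62 (adjusted p = 0.00459 by edgeR), and in DACTPL over DAC its libraries were higher, at 0.23 (adjusted p = 0.275 by edgeR). The interaction was 0.85 (SE 0.11, adjusted p = 0.0391 by edgeR). The libraries were stranded but the strand setting of the counting is not given in the sources used here, so reads of EYA4-AS1 and of its partner cannot be told apart. Of the 84 genes, 0 had a called interaction by edgeR, 6 by DESeq2 and 40 an unadjusted p below 0.05 by edgeR. The 84 were chosen on DACTPL over DAC, which is a part of the interaction. A larger share of low interaction p among them follows from that choice and is no evidence of a different response.

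Lists of genes that share a function were read as counts and medians beside those of all genes, with no test of a list. Members printed with a list but not called were picked after their values were seen. Over all genes, 7.63% were higher and 7.59% lower at an unadjusted p below 0.05 by edgeR. All DACTPL libraries lay above all DAC libraries for 9.52% of genes and below them for 10.3%. Leaving out 1 library moved the medians of the interferon, cholesterol, SNHG, ATF4, contractile and proliferation lists by no more than 1.5 times, and larger moves are given with the other lists. Interferon-stimulated genes lay above the background: of 57 tested, 16 were higher and 0 lower at an unadjusted p below 0.05 by edgeR, 24 were higher in every DACTPL library than in any DAC library and 0 lower, and the median log2 fold change was 0.19 (0.17 with the length trend removed). IFI27 was the sole member called by either tool. IRF7, the transcription factor that amplifies interferon production, had 17.8, 20.9 and 24.2 CPM in DAC and 30.6, 28.4 and 26.5 in DACTPL (log2 fold change 0.44, adjusted p = 0.241 by edgeR). IFI6 had 19.7, 21.7 and 30.2 CPM in DAC and 40.3, 34.4 and 35.6 in DACTPL (0.62, adjusted p = 0.275 by edgeR). In both IRF7 and IFI6 the groups did not overlap and DAC 3 was the DAC library nearest to DACTPL. In TPL over Ctrl the list's median was 0.15, with 3 members called higher by edgeR.

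Of the 22 genes for MHC class I presentation, which interferon also induces, 6 were higher and 1 lower at an unadjusted p below 0.05, with a median of 0.054 that became 0.083, 0.090 and 0.088 without DAC 1, DACTPL 2 and DACTPL 3.

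Genes of cholesterol synthesis and of its regulator SREBP2 were all on the higher side without a call. Of 30 tested, 30 had a log2 fold change above 0, where 53.1% of all genes did, 9 were higher and 0 lower at an unadjusted p below 0.05, and the median was 0.20 (0.14 with the length trend removed). SREBF2, which encodes SREBP2 itself, had 177, 179.7 and 215 CPM in DAC and 220.4, 247 and 239 in DACTPL (log2 fold change 0.31, adjusted p = 0.304 by edgeR). The groups were apart by the margin of DAC 3. In TPL over Ctrl the list had a median of 0.13 and 0 calls by edgeR. Among 39 hypoxia and glycolysis genes 10 were higher and 1 lower at an unadjusted p below 0.05, while 2 were higher and 3 lower in all DACTPL libraries than in any DAC library. The median of 0.11 became 0.056 with the length trend removed, 0.067 without DAC 2 and 0.17 without DAC 3.

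Clustered protocadherins, adhesion genes expressed in combinations that promoter methylation sets, had a median of 0.26 over 50 genes (0.23 with the length trend removed) and 0 called by either tool. At an unadjusted p below 0.05 by edgeR, 4 of the 50 were higher and 0 lower. Over all genes 7.63% were higher and 7.59% lower, so the count of higher protocadherins was near the background. The median was 0.49 without DAC 3, 0.17 without DAC 1, 0.16 without DACTPL 2 and 0.056 with limma on log2(TPM + 1). PCDHB10 had 0.237, 0.180 and 0.386 CPM in DAC and 0.817, 0.716 and 0.672 in DACTPL, levels near the floor of detection. Cancer-testis genes, which decitabine is known to switch on, had 32 of 82 members tested, 3 higher and 1 lower at an unadjusted p below 0.05. Their median of 0.13 turned to -0.050 without DAC 3, and was 0.30 without DAC 2 and 0.044 without DACTPL 1. The 3 were GAGE12C, GAGE12E and GAGE12G, near-identical copies with the same values, which count as 1 measurement. MAGEA3 had 0.922, 0.811 and 0.613 CPM in DAC and 0.980, 1.28 and 0.928 in DACTPL, and no counts in Ctrl or TPL. Germline and meiosis genes had 32 of 58 members tested, 4 higher and 0 lower at that level. Their median of 0.15 was 0.047 without DAC 3 and 0.060 without DACTPL 2, and turned to -0.053 with the stricter filter on low counts.

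Small structural RNAs such as snoRNAs took 2.89%, 2.90% and 2.73% of counts in DAC and 3.06%, 3.41% and 2.91% in DACTPL. The groups did not overlap, and the exact permutation p was 0.1, the smallest that 3 against 3 allows. Of 96 tested, 14 were higher and 1 lower at an unadjusted p below 0.05, and the median of 0.16 became 0.06 with the length trend removed and 0.078 without DACTPL 2. SNORA73A was called by DESeq2, at 571, 529 and 621 CPM in DAC and 657, 927 and 760.5 in DACTPL.

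The lists on the lower side were led by the SNHG genes, whose introns carry snoRNAs and whose spliced RNAs are degraded as they are translated. Of 19 tested, 19 had a log2 fold change below 0, 7 were lower and 0 higher at an unadjusted p below 0.05, and the median was -0.25 (-0.21 with the length trend removed). SNHG15, the sole one called by DESeq2, had 37.4, 37.1 and 30.6 CPM in DAC and 27.7, 25.8 and 24.9 in DACTPL (log2 fold change -0.42). SNHG1 had 177, 163 and 112 CPM in DAC and 105, 89.3 and 90.9 in DACTPL (-0.67, adjusted p = 0.275 by edgeR). For SNHG1 the DAC 3 value lay far nearer to DACTPL than to the other DAC libraries. In TPL over Ctrl the list's median was -0.02, and -0.22 with the length trend removed.

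ATF4 targets and genes of the unfolded protein response, the programme to which DDIT3 and PPP1R15A belong, had 32 members tested. Of these, 9 were lower and 0 higher at an unadjusted p below 0.05, 27 lay below 0, and the median was -0.19 (-0.20 with the length trend removed). SLC3A2, a chain of amino acid exchangers, had 269, 276 and 234 CPM in DAC and 223, 215 and 204 in DACTPL (log2 fold change -0.28, adjusted p = 0.275 by edgeR). TRIB3, a pseudokinase induced by CHOP, had 209, 219 and 159 CPM in DAC and 158, 150.3 and 130.1 in DACTPL (-0.42, adjusted p = 0.301 by edgeR). In both the groups were apart, for TRIB3 by the narrow gap between DAC 3 and DACTPL 1. The list's median in TPL over Ctrl was -0.09.

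In the list of contractile genes and targets of YAP or serum response factor, 6 of 28 were called lower by DESeq2 and 0 higher: TAGLN, ANKRD1, TPM1, MYL9, AMOTL2 and CRIM1. Over all genes, DESeq2 called 0.252% lower and 0.277% higher. At an unadjusted p below 0.05 by edgeR, 9 were lower and 0 higher, where 7.59% of all genes were lower and 7.63% higher. The median of -0.12 became -0.22 with the length trend removed. In TPL over Ctrl the median was -0.12 and 1 member was called, higher. Of 45 genes of ERK feedback and growth factor response, 3 were higher and 6 lower at an unadjusted p below 0.05, DUSP4 was called higher and DUSP1 and DUSP5 lower by DESeq2. The median of -0.04 became -0.057 with the length trend removed, and without DAC 1, DAC 3, DACTPL 2 and DACTPL 3 it was -0.057, -0.011, -0.0080 and -0.079.

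Proliferation genes were lower without a call. Of 44 tested, 12 were lower and 1 higher at an unadjusted p below 0.05 by edgeR, where 7.59% of all genes were lower. For 19 of them every DACTPL library lay below every DAC library, as for 10.3% of all genes. The median was -0.11 (-0.18 with the length trend removed). MCM2, a subunit of the replicative helicase, had 156, 162 and 150.2 CPM in DAC and 141, 131 and 131 in DACTPL (log2 fold change -0.22, adjusted p = 0.270 by edgeR). CDC6, which loads that helicase, had 75.3, 74.2 and 65.5 CPM in DAC and 61.6, 55.6 and 59.0 in DACTPL (-0.29, adjusted p = 0.275 by edgeR). For both genes the groups were apart. Genes of homologous recombination and the Fanconi pathway had 4 of 38 lower and 0 higher at that level, a count near the 7.59% of all genes. Their median was -0.09 (-0.18 with the length trend removed, -0.13 without DAC 3). The p53 targets had 7 of 28 lower and 1 higher, with a median of -0.07 that became -0.10 without DAC 3 and -0.11 without DACTPL 1.

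**Figure D5:**
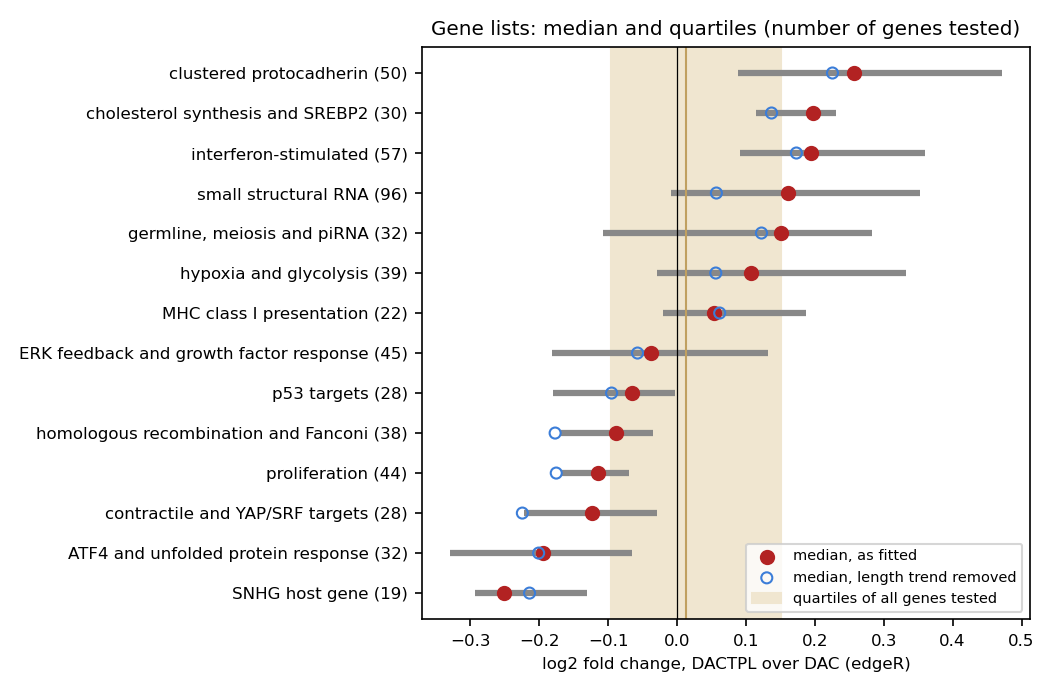
Median (filled points) and quartiles (bars) of the log2 fold change of DACTPL over DAC for 14 gene lists, with the number of genes tested in brackets, the median after removing the length trend (open circles) and the quartiles of all genes (band). As fitted, the protocadherin, cholesterol, interferon and small structural RNA medians lie above the band's upper edge of 0.15. The SNHG, ATF4, contractile and proliferation medians lie below its lower edge of -0.10. With the length trend removed, the cholesterol (0.14) and small structural RNA (0.06) medians lie within the band, and that of homologous recombination (-0.18) lies below it.

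The genes through which both drugs act were not called. DCTPP1 had 41.1, 39.8 and 31.7 CPM in DAC and 34.1, 34.2 and 30.9 in DACTPL, and the groups overlapped. Its log2 fold change was -0.18 (SE 0.14, adjusted p = 0.507 by edgeR), with 30.1 CPM as the mean of Ctrl and 36.3 as that of TPL. The maintenance methyltransferase DNMT1 had 224, 239 and 243 CPM in DAC and 227, 248 and 237 in DACTPL, a log2 fold change of 0.01 (SE 0.06). The de novo methyltransferases DNMT3A and DNMT3B had log2 fold changes of 0.13 (SE 0.10) and -0.00 (SE 0.08). DCK gave -0.01 (SE 0.13) and ERCC3 -0.10 (SE 0.05), and the adjusted p of these 5 genes by edgeR ran from 0.362 to 0.992. Of 23 genes that handle nucleoside drugs, 1 was higher and 4 lower at an unadjusted p below 0.05, among them ITPA, a pyrophosphatase of inosine nucleotides, at 28.3, 29.3 and 25.7 CPM in DAC and 24.2, 21.6 and 20.7 in DACTPL (-0.32, adjusted p = 0.225 by edgeR). Of 29 genes of TFIIH and RNA polymerase II, 2 were lower and 0 higher at that level. Over all genes 7.59% were lower and 7.63% higher.

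The authors' deposited table of the comparison listed 87 genes at an adjusted p below 0.05, 47 higher and 40 lower, and held all 84 of the DESeq2 calls made here. In the authors' deposited table DUSP5 had a log2 fold change of -0.42, MAPK4 0.77 and CPS1 0.80. The authors' z-score list, chosen on these samples and so no independent evidence, held 704 genes, 503 of them with the highest mean score in DACTPL. It held 4 of the 5 edgeR calls, DUSP5 being the exception, and 32 of the 84.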

How the data were processed

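Per the labels, stranded total RNA libraries of DU145 cells, 12 in all, were read from both ends over 100 bases. Gene-level expected counts and TPM were deposited by the authors. The submitters' processing notes name RSEM 1.2.09 and the hg19 build for them. Log2 fold changes and p-values deposited by the authors came from DESeq2 and R 4.0.4 by the same notes. The authors also deposited a score per gene and library, the z-score of its level, for a list they chose. The aligner, annotation and strand setting are not given in the sources used here.

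Expected counts of 26341 genes were rounded to whole numbers and tested with edgeR 4.0.16 in R 4.3.3 (TMM, filterByExpr by group, robust quasi-likelihood fit of all 12 libraries, two-sided, Benjamini-Hochberg adjustment over 15890 genes, called below 0.05). The comparison of interest was 1 of 5 fitted. CPM are scaled by TMM. DESeq2 1.42.0, limma 3.58.1 on log2(TPM + 1) and log2(TPM + 0.1), other filters and scalings, and leave-outs were alternatives. Relative gene lengths came from counts and TPM, and the length trend of a library was a spline with 4 degrees of freedom. The procedure was also run on simulated counts. Of 28 symbols turned into dates, 27 were resolved.

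Always named were DCTPP1, DNMT1, DNMT3A, DNMT3B, DCK, ERCC3, MAPK4, CPS1, TAGLN and DUSP5. Then came up to 15 called genes a direction by size, with at least 1 CPM and separate libraries, and up to 4 called members of each list, or 2 by level. Since edgeR called 5, the rule was extended to DESeq2 calls after seeing the data. The members and lists were chosen with earlier results of these data known. Not every gene the rule gives is printed. Outside the rule lay IRF7, IFI6, SREBF2, PCDHB10, MAGEA3, SNHG1, SLC3A2, TRIB3, MCM2, CDC6 and ITPA. These were picked after their values were seen, go in the direction of their list's median and do not represent its other members.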

Additional observations from a re-analysis of the deposited data

Results flagged for a closer look

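EYA4-AS1 stood apart because the response to triptolide differed between cells without and with decitabine, by the interaction test of edgeR. The log2 fold change of TPL over Ctrl was -0.62 and that of DACTPL over DAC was 0.23, a difference of 0.85 (SE 0.11, adjusted p = 0.0391 by edgeR). All 3 TPL libraries lay below all 3 Ctrl libraries, and all 3 DACTPL libraries lay above all 3 DAC libraries. The call was lost without Ctrl 1, Ctrl 2, TPL 1, TPL 2, any DAC library, DACTPL 1 or DACTPL 3, where edgeR called 0 interactions. Without Ctrl 3, TPL 3 and DACTPL 2 it was kept among 14, 950 and 9 called interactions. No explanation was tested.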

How the results depend on the processing

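For DACTPL over DAC, the 5 calls became 84 with DESeq2, 1 with limma on log2(TPM + 0.1) and 0 with a 2-fold minimum, and leaving out libraries gave 0 to 2134, the highest without every replicate 3. Size factors of DESeq2, other filters, the groups compared alone, removing the length trend, leaving out small RNAs and limma on log2(TPM + 1) gave 4 to 6, but IFI27 and TAGLN were lost with the groups compared alone and IFI27 with limma. DESeq2's own 84 calls ranged from 2 to 1195 when libraries were left out. The 392 calls of TPL over Ctrl became 867 with DESeq2, 23 with the groups compared alone, 209 with the length trend removed, 30 with a 2-fold minimum, and 0 to 1865 with libraries left out. With limma on log2(TPM + 1) and log2(TPM + 0.1) they became 10831 (49 higher, 10782 lower) and 10907 (52 higher, 10855 lower), where the median of all genes shifted to -0.29 and -0.36. The 1 interaction became 118 with DESeq2, 8 without a filter, 4 with the length trend removed, 5098 and 5103 with limma on log2(TPM + 1) and log2(TPM + 0.1), where the median of all genes was 0.24 and 0.31, 0 with a 2-fold minimum, and 0 to 2049 with libraries left out. The causes were not tested.

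The replicate numbers were not taken to pair the libraries, since the labels do not say that a number marks a shared culture or day. Deviations of DAC and DACTPL libraries with the same number correlated at 0.26, -0.05 and 0.13, and those with different numbers at -0.32 to 0.19. Of the 18 same-numbered pairs over all groups 11 were above 0.1, and all 6 pairs of replicate 3 were (0.13 to 0.50). What the libraries of replicate 3 share was not tested. With a replicate block edgeR called 580 genes between DACTPL and DAC (266 higher, 314 lower), 1288 between TPL and Ctrl and 1 interaction, and DESeq2 called 845 between DACTPL and DAC. The replicate block with the length trend removed gave 1215 (324 higher, 891 lower), 1030 and 31 with edgeR. All 5 genes were called with the block.

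Of the genes always named, 3 had a log2 fold change near 0 that changed sign. DNMT1 was -0.078 with the length trend removed, -0.077 with the replicate block as well, -0.039 with limma on log2(TPM + 1), -0.039 on log2(TPM + 0.1), and -0.022 to 0.033 with libraries left out. DCK ranged from -0.13 to 0.11 and DNMT3B from -0.039 to 0.025 with libraries left out. The direction of all 84 DESeq2 calls was the same in every edgeR and limma fit they entered. Depth limits counts below 3 per library, or 0.0638 to 0.114 CPM.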
